A study of Homo sapiens with 24 samples.

Results

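IRF1 and CIITA are 2 of the 355 transcripts with values on a membrane array of inflammatory genes. They were taken by symbol. IRF1 is listed under its own symbol and CIITA under the older symbol MHC2TA, and each has 1 probe. The RNA came from BEAS-2B cells, a line made from human bronchial epithelium. Cells received PBS (untreated) or TNFα and IFNγ together, each at 50 ng/ml (stimulated), for 3 h or 18 h. RNA was then recovered with the antibody 3A2 against HuR (HuR IP) or with an IgG1 isotype antibody as the negative control (IgG1 IP). The protocol names 1 supplier, Santa Cruz Biotechnology, for 3A2, but the sample labels give that vendor on the untreated HuR arrays and R&D on the stimulated ones. If the labels hold, vendor and stimulation cannot be told apart in the HuR IP, whereas all IgG1 arrays carry 1 vendor label. HuR binds RNA, mostly at AU-rich stretches such as those of many inflammatory transcripts. The 24 arrays form 8 groups of 3, and each group holds 1 array of set 1, set 3 and set 4, as the labels number the replicates. The design text calls them biological replicates of 1 cell line, so the spread is that between replicates of 1 line. No array of stimulation with 1 cytokine alone and no array of RNA before immunoprecipitation was used here.

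IRF1 is a transcription factor that binds interferon-responsive promoters and turns on chemokine, antigen-processing and antiviral genes. IFNγ induces its gene through the JAK-STAT pathway, TNFα does so through NF-κB, and both routes are known to work within hours in airway epithelium. CIITA does not bind DNA itself: it is the coactivator that switches on the MHC class II genes. Outside antigen-presenting cells its gene is silent until IFNγ acts, and IRF1 is known to bind the IFNγ-responsive promoter of CIITA, hence the pairing of the 2 transcripts as activator and target.

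The promoter of IRF1 is shown because both cytokines given to these cells are known to act on it. The RefSeq promoter table for GRCh38.p14 holds it at chr5:132490724-132491023 on the minus strand, from 250 bases before the start of the gene to 50 bases after it. Capitals mark a GAS element (TTCNNNGAA, bound by STAT proteins), at -124 to -116 from the start, and an NF-κB site, at -50 to -41.
IRF1 promoter: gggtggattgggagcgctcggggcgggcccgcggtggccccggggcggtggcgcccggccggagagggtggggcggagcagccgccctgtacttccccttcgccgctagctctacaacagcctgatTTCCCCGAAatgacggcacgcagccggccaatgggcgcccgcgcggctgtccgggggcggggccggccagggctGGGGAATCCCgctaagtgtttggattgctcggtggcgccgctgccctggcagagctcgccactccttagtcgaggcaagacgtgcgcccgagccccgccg

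Both strands of each promoter of this length were searched. The GAS letters occurred in 7.88% of 27305 promoters and in 10.4% of the 279 promoters that belong to transcripts of the array. The NF-κB consensus occurred in 5.72% and 12.9%, and an interferon regulatory factor element (AANNGAAA) in 23.2% and 24.0%. The IRF1 window held no match to the last of these. These matches describe letters only and show no binding.

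Array medians ran from 2303 to 23848 intensity units, so each value below is the log2 intensity minus the median of the 355 transcripts on the same array. Zero is therefore the middle transcript of that array, and a shift shared by most transcripts cannot be seen. The files hold no value for blank or housekeeping spots, so no detection limit can be given. Set 1 stood apart from the others. Across genes, its arrays had a median correlation of 0.385 with those of set 3 and 0.408 with those of set 4, against 0.766 between sets 3 and 4 and 0.743 to 0.787 within a set. Results are therefore given with and without set 1. No epithelial marker was measured. Of the leukocyte and antigen-presenting cell markers, 6 of 16 were measured (CD28, CD3E, CD3G, CD80, CD86 and PTPRC). In the 4 comparisons of stimulated with untreated cells 0 of the 6 passed, where 0.563% to 1.41% of all transcripts did. At 18 h the highest of the 6 was at 0.82 in the HuR IP and 1.47 in the IgG1 IP, with medians of 0.14 and -0.03. All comparisons come from 1 limma fit over the 24 arrays, and a transcript passed when its Benjamini-Hochberg adjusted p over the 355 transcripts was under 0.05.

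IRF1 stood near the middle transcript of the array in untreated cells and far above it in stimulated cells, whichever antibody was used. Its untreated values lay 0.275 to 1.42 on the log2 scale above the dimmest transcript of their array. With no blank spots to compare, the distance of this baseline from the background is not known, and the folds below depend on it. In untreated cells at 3 h, IRF1 in the IgG1 IP was at 0.09, -0.05 and 0.03 in sets 1, 3 and 4 (10248, 5278 and 17433 intensity units). In stimulated cells at 3 h it was at 1.92, 3.41 and 2.80 in the IgG1 IP (51792, 42202 and 116334 intensity units). Every stimulated array was above every untreated one, and set 1 was the lowest of the stimulated arrays. The rise of IRF1 was 2.69 ± 0.51 in log2 units (SE over groups of n = 3), which is 6.43-fold (95% interval 3.08 to 13.5, adjusted p = 0.0162).

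In the HuR IP at 3 h, IRF1 was at -0.26, -0.19 and -0.14 in untreated cells and at 1.73, 3.06 and 2.86 in stimulated cells, in sets 1, 3 and 4. The groups again did not overlap, and set 1 was again lowest among the stimulated arrays. The rise was 2.75 ± 0.51 (SE), or 6.72-fold (95% interval 3.21 to 14.0, adjusted p = 0.0125). In both comparisons at 3 h, IRF1 had the smallest p of the 355 transcripts but the 8th largest difference. With the HuR antibody, 2 transcripts passed at 3 h (0.563% of those tested), and 17 had an unadjusted p under 0.05. With IgG1, 4 passed at 3 h (1.13%), and 20 had an unadjusted p under 0.05.

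At 18 h IRF1 was still above every untreated array, with a wider spread in the IgG1 IP. There it was at -0.15, 0.05 and 0.19 in untreated cells and at 0.64, 3.37 and 2.76 in stimulated cells, in sets 1, 3 and 4. The array of set 1 stood well below the other 2, and its raw intensity of 4710 was below the 10697 of its untreated counterpart. The array median fell too in that pair, so the centred value was higher with stimulation and the raw one lower. The rise was 2.23 ± 0.51 (SE, 4.68-fold, 95% interval 2.24 to 9.78, adjusted p = 0.0259), where 5 transcripts passed (1.41%).

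In the HuR IP at 18 h, IRF1 was at -0.46, -0.03 and 0.06 in untreated cells and at 1.18, 1.66 and 1.96 in stimulated cells. The groups did not overlap. The difference was 1.74 ± 0.51 (SE, 3.35-fold, 95% interval 1.60 to 7.01), with an adjusted p of 0.126, where 4 other transcripts passed (1.13%). With the set as a replicate block the difference was the same and the adjusted p was 0.0156. The number of transcripts that passed went from 4 to 13 (3.66%) under that block. It went from 2 to 8 (2.25%) in the HuR IP at 3 h, and from 4 to 9 (2.54%) and 5 to 18 (5.07%) in the IgG1 IP at 3 h and 18 h.

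Groups that did not overlap, with the stimulated one higher, were found for IRF1 in all 4 comparisons. They were also found for 5.63% of transcripts in the HuR IP at 3 h and 5.63% in the IgG1 IP at 3 h, and for 6.2% and 5.35% at 18 h in the HuR IP and the IgG1 IP. Over both antibodies and both times, the 12 stimulated arrays had IRF1 between 0.64 and 3.41 with a median of 2.36. The 12 untreated arrays lay between -0.46 and 0.19 with a median of -0.04. Within each set, stimulated minus untreated was above 0 in 12 of 12 pairs of arrays. Set 1 gave differences of 1.83 and 0.79 in the IgG1 IP at 3 h and 18 h, against 3.46 and 3.32 in set 3 and 2.76 and 2.57 in set 4. With the HuR antibody, set 1 gave 1.99 and 1.64, set 3 gave 3.25 and 1.69, and set 4 gave 3.00 and 1.91. In bulk RNA, more cells making a transcript and more RNA per cell cannot be told apart.

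**Figure D1:**
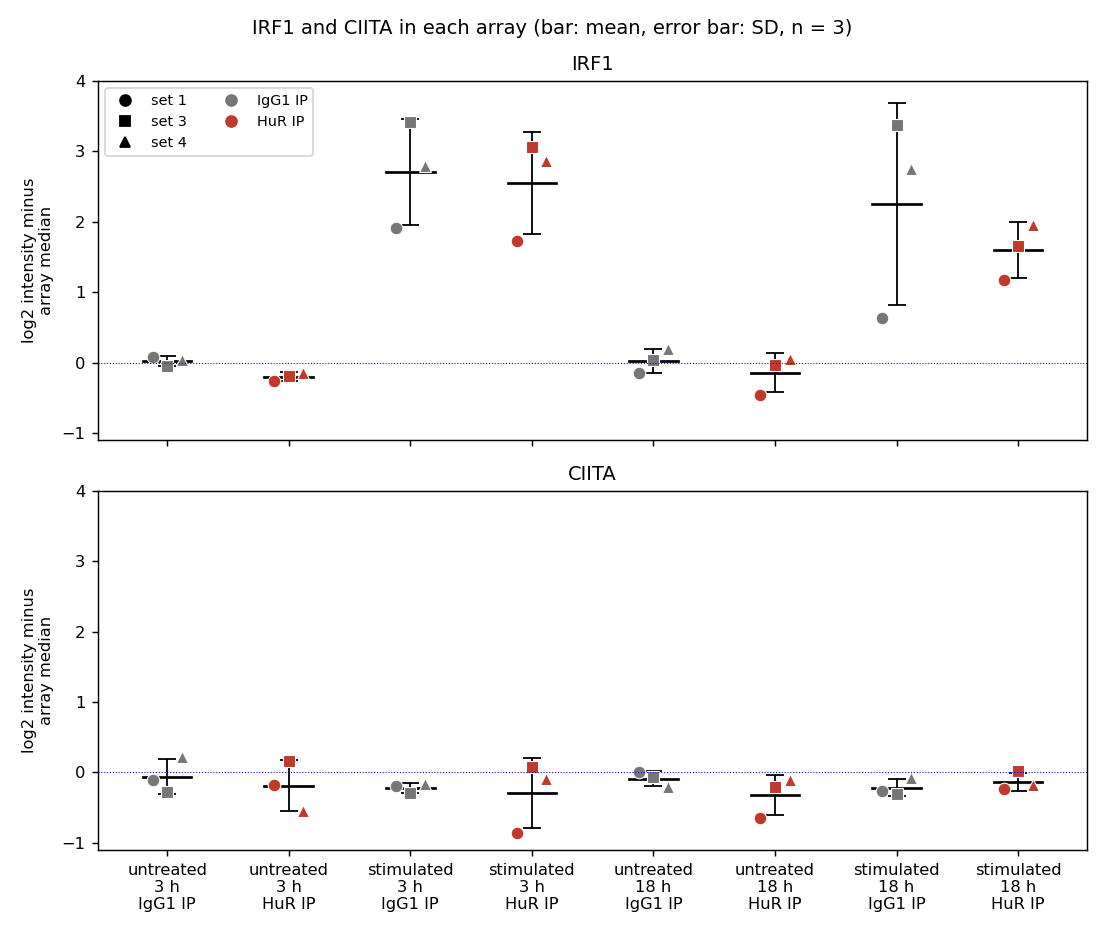
Log2 intensity minus the array median (vertical axis) of IRF1 (upper panel) and CIITA (lower panel) in each of the 24 arrays, by group; circles, squares and triangles are sets 1, 3 and 4, red is the HuR IP and grey the IgG1 IP, and lines with error bars are means with SD (n = 3). IRF1 lies between 0.64 and 3.41 in the stimulated arrays and between -0.46 and 0.19 in the untreated ones, while CIITA lies between -0.86 and 0.21 throughout.

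Without set 1, whose stimulated values of IRF1 were the lowest of each group, all 4 rises passed in a fit with only 2 arrays per group. The number of transcripts that passed grew as well without set 1, to 19 (5.35%) and 11 (3.1%) in the HuR IP at 3 h and 18 h, and to 17 (4.79%) and 24 (6.76%) in the IgG1 IP. The rises of IRF1 were 3.13 ± 0.26 (adjusted p = 1.57e-05) and 1.80 ± 0.26 (adjusted p = 0.00142) in the HuR IP at 3 h and 18 h. With IgG1 they were 3.11 ± 0.26 (adjusted p = 8.26e-06) and 2.95 ± 0.26 (adjusted p = 1.53e-05). Without set 3 or without set 4 the differences ran from 1.66 to 2.65 and none passed, with adjusted p values of 0.482 or above. In those fits 0 of the 355 transcripts passed in any of the 4 comparisons (0%), and set 1 is 1 of only 2 arrays per group. Leaving out single arrays also ended calls in the fits that follow, in each of which 0 of the 355 transcripts passed (0%). The call in the HuR IP at 3 h was lost without any 1 of the 3 untreated arrays, or without the stimulated array of set 3 or set 4. That in the IgG1 IP at 3 h was lost without the untreated array of set 1 or set 3, or without the stimulated array of set 3 or set 4. That in the IgG1 IP at 18 h was lost without any 1 of the 3 untreated arrays, or without the stimulated array of set 3 or set 4. The differences kept their sign in all of these fits.

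The level of IRF1 at 18 h was set against that at 3 h to see whether its signal was sustained. In stimulated cells of the HuR IP, IRF1 averaged 2.55 ± 0.72 (SD, n = 3) at 3 h and 1.60 ± 0.39 at 18 h, a difference of -0.95 ± 0.51 (SE, 95% interval -2.01 to 0.12, adjusted p = 0.999). The 3 sets gave -0.54, -1.40 and -0.90, and the ranges of both groups overlapped. Without set 1 the difference was -1.15 ± 0.26, with an adjusted p of 0.0559. In the IgG1 IP it was -0.46 ± 0.51 (SE, 95% interval -1.52 to 0.61). There set 1 gave -1.28 and sets 3 and 4 gave -0.04 each, so the mean difference came from 1 set, and it was -0.04 without set 1. In untreated cells IRF1 differed by 0.06 and 0.00 between 18 h and 3 h in the HuR IP and the IgG1 IP.

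In stimulated cells, 1 transcript passed between the times in each IP (0.282% and 0.282%). CCL5 was that transcript in both, and IRF1 did not pass in either. In untreated cells 0 passed (0% and 0%), with 3 transcripts in the HuR IP and 0 in the IgG1 IP at an unadjusted p under 0.05. The change of IRF1 with stimulation at 18 h minus that at 3 h missed the threshold in both IPs. It was -1.0025 ± 0.72 in the HuR IP (95% interval -2.51 to 0.50) and -0.46 ± 0.72 in the IgG1 IP (95% interval -1.97 to 1.05). In each of these 2 comparisons 0 transcripts passed (0% and 0%), and 3 had an unadjusted p under 0.05.

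Whether the antibody against HuR recovered more IRF1 than the isotype control was asked in each condition. The mean was lower in the HuR IP in all 4 on the median-centred scale. HuR IP minus IgG1 IP was -0.22 in untreated cells at 3 h, -0.17 in untreated cells at 18 h, -0.16 in stimulated cells at 3 h and -0.65 in stimulated cells at 18 h (SE 0.51 each). The highest upper limit of these 4 95% intervals was 0.90 on the log2 scale, or 1.87-fold. As the mean of the 4 conditions it was -0.30 ± 0.25 (95% interval -0.84 to 0.23), and the adjusted p was 0.990 or above in all 5. By set, 2 of 12 pairs of arrays had more IRF1 in the HuR IP. The direction in stimulated cells at 18 h turned with the scaling: it was 0.72 without normalization and 0.98 in the second deposited table, where the median of all transcripts was itself higher by 1.61 in the HuR IP, and neither passed.

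In untreated cells at 3 h the HuR values of IRF1, at most -0.14, all lay below the IgG1 values, at least -0.05. That was so for 5.35% of transcripts, and the mean difference of 0.22 below the control did not pass. In stimulated cells at 18 h the sets differed in sign. Set 1 gave 0.54, while sets 3 and 4 gave -1.71 and -0.80, and the difference without set 1 was -1.25 ± 0.26 with an adjusted p of 0.152. For the HuR IP against the IgG1 IP, 0 transcripts passed in each of the 4 conditions and in their mean (0% in each of these 5 comparisons). The numbers at an unadjusted p under 0.05 were 1 and 0 in untreated cells at 3 h and 18 h, 0 and 11 in stimulated cells, and 12 in the mean. The second deposited table gave 25 in stimulated cells at 18 h, all higher in the HuR IP, and 2 in the mean, and z scores gave 1 in the mean.

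The change of IRF1 with stimulation was then compared between the antibodies. In the HuR IP it was larger by 0.06 ± 0.72 at 3 h (95% interval -1.44 to 1.57) and differed by -0.48 ± 0.72 at 18 h (95% interval -1.99 to 1.02). Without set 1 these were 0.01 ± 0.37 and -1.15 ± 0.37, with adjusted p values of 0.995 and 0.449. In both comparisons 0 transcripts passed (0% and 0%), and 0 had an unadjusted p under 0.05. With 3 arrays per group, differences between the antibodies of any size within these intervals remain compatible with the data.

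CIITA lay within 0.86 of the middle transcript of the array on the log2 scale, mostly below it, and no difference with stimulation passed at either time in either IP. At 3 h in the IgG1 IP, CIITA was at -0.11, -0.28 and 0.21 in untreated cells (sets 1, 3 and 4) and at -0.19, -0.30 and -0.17 in stimulated cells. CIITA in the HuR IP at 3 h was at -0.17, 0.16 and -0.55 in untreated cells and at -0.86, 0.08 and -0.09 in stimulated cells. The groups overlapped in both, and the sets did not keep 1 order.

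At 18 h in the IgG1 IP, CIITA was at 0.00, -0.06 and -0.21 in untreated cells and at -0.26, -0.31 and -0.08 in stimulated cells. CIITA in the HuR IP at 18 h was at -0.64, -0.21 and -0.11 in untreated cells and at -0.24, 0.01 and -0.18 in stimulated cells. The groups overlapped here too. In intensity units CIITA ran from 1856 to 19749, which followed the brightness of the arrays.

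The differences of CIITA with stimulation were -0.16 and -0.13 in the IgG1 IP at 3 h and 18 h, and -0.10 and 0.18 in the HuR IP (SE 0.23 each, n = 3 arrays per group), with adjusted p values of 0.979 or above. The 95% intervals reached up to 1.25-fold and 1.28-fold in the IgG1 IP and up to 1.30-fold and 1.59-fold in the HuR IP. Rises of the size seen for IRF1, 3.35-fold to 6.72-fold, lie outside all 4 intervals on this scale. These folds of IRF1 come from the median-centred fit, and under some other settings the intervals of CIITA reached into them. In the HuR IP at 18 h, normexp background correction gave CIITA a difference of 1.26 ± 0.81 with an interval up to 7.66-fold. Under normexp IRF1 itself rose there by 3.38 in log2 units, above the upper limit of 2.94 for CIITA. The second deposited table gave up to 4.37-fold there, and no normalization gave up to 5.25-fold there and 3.75-fold in the HuR IP at 3 h. By set, stimulated minus untreated was above 0 in 4 of 12 pairs of arrays and ran from -0.69 to 0.46. Without set 1 the differences were -0.20 and -0.06 in the IgG1 IP and 0.19 and 0.07 in the HuR IP, and none passed. All 24 values of CIITA lay between -0.86 and 0.21, and 4 were above 0. Their SD was 0.239, which is smaller than that of most transcripts (53 of 355 had a smaller one, median 0.363). The SD of IRF1 over the same arrays was 1.36, and 334 of 355 had a smaller one.

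HuR IP minus IgG1 IP was -0.13 and -0.23 for CIITA in untreated cells at 3 h and 18 h, and -0.07 and 0.08 in stimulated cells (SE 0.23 each). The mean of the 4 conditions was -0.09 ± 0.11 (95% interval -0.33 to 0.15), and CIITA was higher in the HuR IP in 6 of 12 pairs. Between 18 h and 3 h it differed by 0.15 and 0.00 in stimulated cells and by -0.13 and -0.03 in untreated cells, in the HuR IP and the IgG1 IP. None of the 17 comparisons passed for CIITA, and none did without set 1 or under any other setting tried. CIITA lay 0.09 to 1.25 on the log2 scale above the dimmest transcript of its array. With no blank spots to compare, these values cannot show whether the transcript was present.

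**Figure D2:**
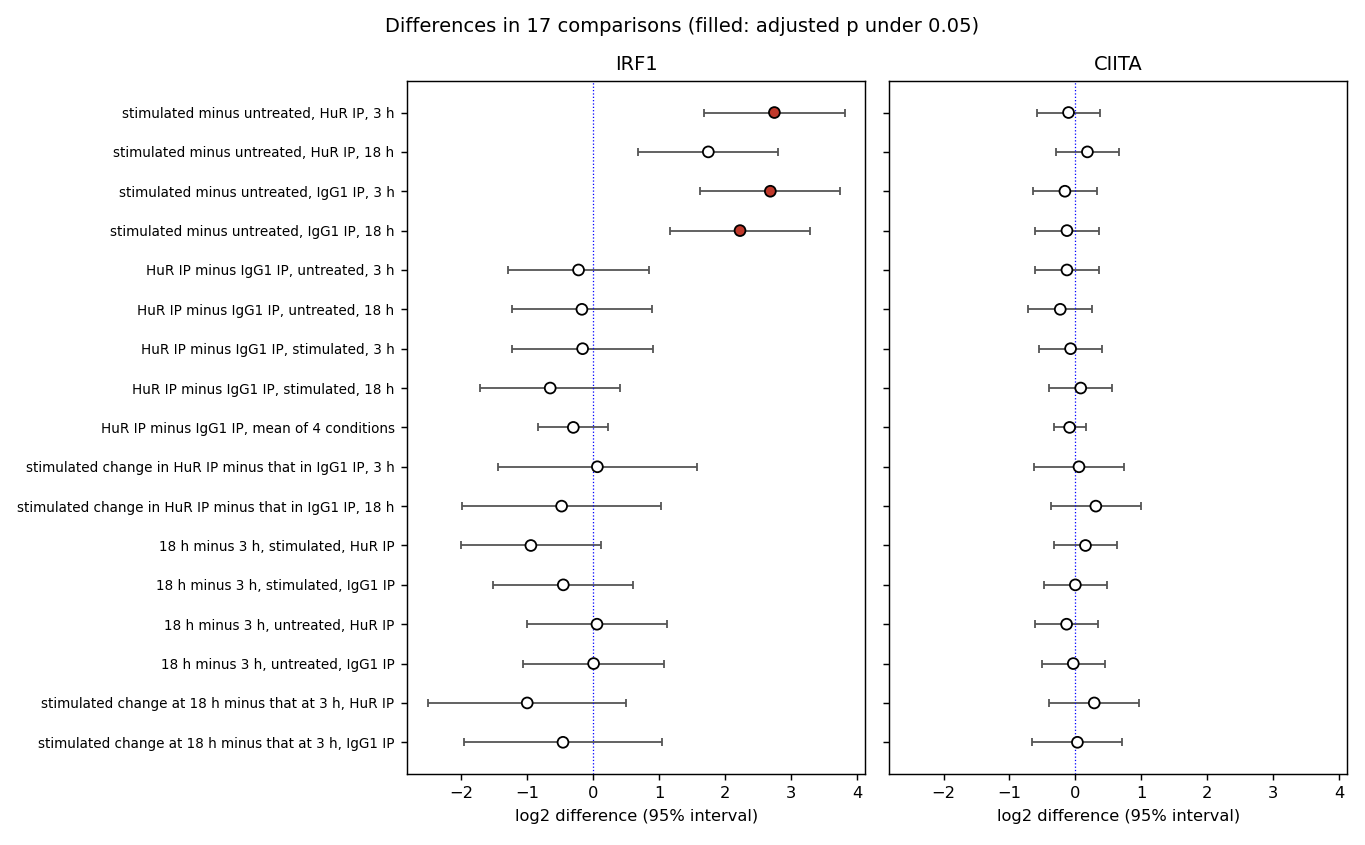
Log2 differences (horizontal axis) of IRF1 and CIITA in the 17 comparisons, with 95% intervals of the limma fit; filled points passed at an adjusted p under 0.05. In this fit without a block, IRF1 rose in 3 of the 4 comparisons of stimulated with untreated cells. Its difference of 1.74 in the HuR IP at 18 h did not pass, and no comparison passed for CIITA.

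The ratio of both intensities on the same array needs no scaling, since the brightness of the array cancels. Its level depends on the 2 probes, so only its change is read here. The log2 of IRF1 over CIITA lay between -0.35 and 0.41 in the 12 untreated arrays and between 0.91 and 3.71 in the 12 stimulated arrays. Within sets 1, 3 and 4 the change with stimulation in the HuR IP was 2.68, 3.34 and 2.54 at 3 h, and 1.24, 1.47 and 1.98 at 18 h. With IgG1 it was 1.91, 3.48 and 3.14 at 3 h, and 1.05, 3.57 and 2.44 at 18 h. All 12 changes were above 0, with the smallest in set 1 of the IgG1 IP at 18 h. This shows that the 2 signals changed unequally, not which of them did. A background added to both would not cancel, and its size is not known here.

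**Figure D3:**
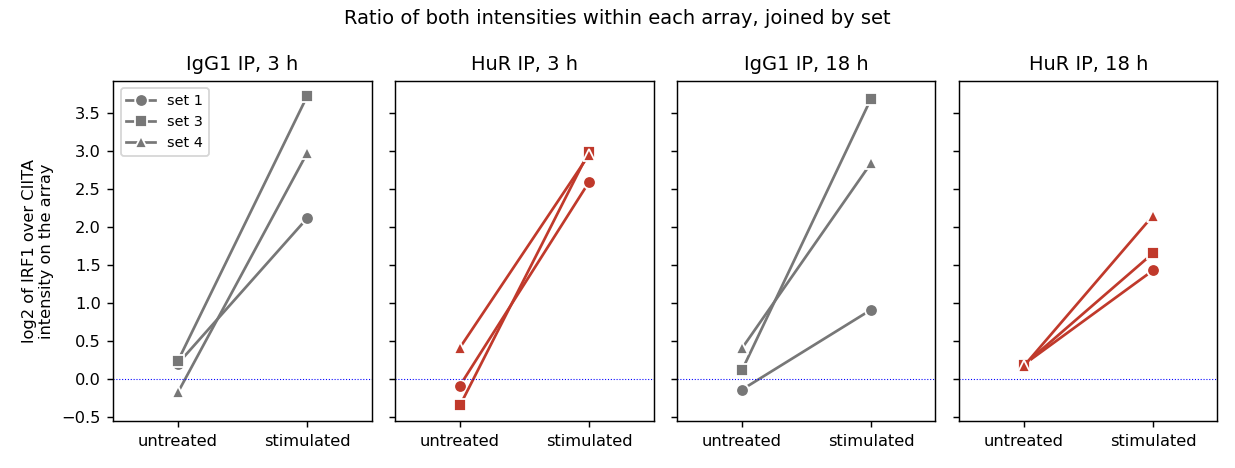
Log2 ratio of IRF1 to CIITA intensity on each array (vertical axis) in untreated and stimulated cells, with lines joining the arrays of 1 set; panels are the IgG1 IP and HuR IP at 3 h and 18 h. The ratio is higher in the stimulated array of all 12 pairs, and the untreated values lie between -0.35 and 0.41.

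Across the 24 arrays, with the mean of each set removed, IRF1 and CIITA had a Pearson correlation of -0.12. Within sets 1, 3 and 4, each of 8 arrays, it was -0.27, -0.25 and 0.14. Arrays of a set share a replicate number and arrays of 1 treatment share the stimulation, so these are descriptions.

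The 5 transcripts whose values over the 24 arrays were most like those of IRF1, by the same correlation, were ICAM1 (0.969), NFKBIA (0.941), TNFAIP3 (0.924), IL6 (0.899) and BCL3 (0.897). The median over all other transcripts was -0.07. ICAM1 encodes an adhesion molecule to which leukocytes bind, NFKBIA and TNFAIP3 encode inhibitors of NF-κB, IL6 a cytokine, and BCL3 a nuclear partner of NF-κB. The correlation of ICAM1 with IRF1 was 0.956, 0.996 and 0.935 within sets 1, 3 and 4, whereas that of TNFAIP3 was 0.735 in set 1 and 0.993 and 0.957 in the others. The order changed for IL6 when ranks were correlated, from the 4th place to the 17th.

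ICAM1 ran from -0.31 to 1.76 in the 12 untreated arrays and from 0.73 to 5.21 in the stimulated ones, with medians of 0.14 and 3.77. Unlike IRF1, its 2 ranges overlapped. IL6 ran from -0.24 to 0.64 and from 0.35 to 2.60, with medians of 0.03 and 1.64. IL6 and TNFAIP3 rose in the IgG1 IP at 3 h, by 1.84 ± 0.38 (adjusted p = 0.0248) and 1.82 ± 0.44 (adjusted p = 0.0484). In that comparison 4 of the 355 transcripts passed (1.13%). None of the 5 passed in the other 3 comparisons, where 0.563% to 1.41% of all transcripts did. The 5 were picked by their likeness to IRF1 over these same arrays, so their change with stimulation is a description and no separate evidence. In the promoters, ICAM1 held a GAS element (TTCCGGGAA, -75 to -67). NFKBIA, IL6 and BCL3 each held 1 NF-κB site and TNFAIP3 held 2. The GAS element and the NF-κB site found together in IRF1 were not found together in any of these 5 windows. The share of all promoters with both was not computed, so this does not set IRF1 apart. A window without a match to the letters can still hold a site.

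CIITA had no transcript as close to it. The highest correlations were those of MGC27165 (0.683), MAP3K1 (0.634), MAF (0.610), SELE (0.584) and LEP (0.536), with a median over all other transcripts of 0.08. For SELE and MAP3K1 they were much higher in set 1 than in set 4: that of SELE was 0.978 in set 1 and -0.23 in set 4, and that of MAP3K1 was 0.907 in set 1 and 0.302 in set 4. The values of MGC27165 lay between -0.69 and 0.14 over all arrays. None of the 5 passed in any comparison of stimulated with untreated cells, where 0.563% to 1.41% of all transcripts did.

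The measured members of the pathways around IRF1 were described by counts. Of the transcripts for IFNγ and JAK-STAT signalling, 5 were measured: IFNG, the kinases JAK1 and JAK2, and the feedback inhibitors SOCS1 and SOCS3. None passed in either direction in any comparison of stimulated with untreated cells, where 0.563% to 1.41% of all transcripts did. In the HuR IP the medians of these 5 were 0.04 and 0.38 at 3 h and 18 h. With IgG1 they were 0.07 and 0.82. Medians of all transcripts were -0.09, 0.03, -0.09 and 0.01 in the same order. SOCS3 was at 1.22 ± 0.52 (HuR IP) and 1.00 ± 0.52 (IgG1 IP) at 3 h, while SOCS1 was at 0.08 ± 0.72 and 0.18 ± 0.72. JAK2 passed in the IgG1 IP at 18 h with the replicate block, where 5.07% of all transcripts passed. It did not pass there without set 1, where 6.76% did. No other interferon regulatory factor of the 8 listed had a value.

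On the route from the TNF receptors to NF-κB, all 15 listed transcripts were measured and 0 passed in the same 4 comparisons. Of all transcripts, 0.563% to 1.41% passed in these. The list medians were -0.10 and -0.13 in the HuR IP at 3 h and 18 h, and 0.16 and 0.36 in the IgG1 IP. The highest value in each of the 4 comparisons was that of NFKBIA, an inhibitor that NF-κB itself induces. It was at 2.03, 2.08, 2.29 and 2.78 (SE 1.14). Its spread was wide, with 1.10 as its median over the untreated arrays. Without set 1, where 19, 17 and 24 of the 355 transcripts passed, NFKBIA passed in 3 of these comparisons, at 2.26 (adjusted p = 0.0438), 2.66 (adjusted p = 0.0162) and 3.80 (adjusted p = 0.000864) in the HuR IP at 3 h and the IgG1 IP at 3 h and 18 h. With the replicate block NFKBIA passed in 3 too, namely the HuR IP at 18 h and the IgG1 IP at 3 h and 18 h. Of all transcripts, 3.66%, 2.54% and 5.07% passed there under the block. RELA and NFKB2, which encode subunits of NF-κB, passed in the IgG1 IP at 18 h without set 1 and with the block, and RELA was at 2.82 ± 0.66 without set 1. Receptor and adaptor transcripts (TNFRSF1A, TNFRSF1B, TRADD, TRAF2 and RIPK1) lay between -0.40 and 0.61.

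Of 26 transcripts described as IRF1 targets, 15 were measured, and 3 of them passed at 18 h in at least 1 IP. At 3 h, 0 of 15 passed in either IP, where 0.563% (HuR IP) and 1.13% (IgG1 IP) of all transcripts did. The list medians were 0.24 in the HuR IP and 0.18 in the IgG1 IP. CXCL10, a chemokine that draws T cells, was already at 3.12 ± 1.08 and 2.92 ± 1.08 without passing. CCL5, which draws T cells and monocytes, was at 0.05 ± 0.69 and 0.04 ± 0.69.

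At 18 h, CCL5 rose in the HuR IP by 3.50 ± 0.69 (SE, adjusted p = 0.0128) and was the 1 of 15 that passed. In the IgG1 IP 3 of 15 rose: CCL5 by 3.44 ± 0.69 (adjusted p = 0.0168), CXCL10 by 4.68 ± 1.08 (adjusted p = 0.0259) and IL18BP, which encodes a protein that neutralises interleukin 18, by 1.68 ± 0.34 (adjusted p = 0.0168). Of all transcripts, 1.13% passed at 18 h in the HuR IP and 1.41% in the IgG1 IP. The list medians at 18 h were 0.11 and 0.62. CCL5 also rose between 3 h and 18 h in stimulated cells, by 3.44 ± 0.69 in the HuR IP (adjusted p = 0.0313) and 3.53 ± 0.69 in the IgG1 IP (adjusted p = 0.0235). Over the same interval IRF1 differed by -0.95 and -0.46. The change of CCL5 with stimulation at 18 h minus that at 3 h was 3.45 ± 0.97 and 3.41 ± 0.97, with adjusted p values of 0.800 and 0.884.

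Without set 1, with 5.35% and 4.79% of all transcripts passing at 3 h and 3.1% and 6.76% at 18 h, 2 of 15 passed at 3 h in the HuR IP (CXCL10 and CXCL11) and 2 in the IgG1 IP (CXCL10 and CDKN1A, an inhibitor of the cell cycle). At 18 h, 4 passed in the HuR IP and 6 in the IgG1 IP. The latter were CXCL10 with 6.33 ± 0.44, CXCL11 with 5.13 ± 0.55, CCL5 with 4.74 ± 0.47, IL15RA with 2.45 ± 0.42, IL18BP with 2.25 ± 0.33 and CDKN1A with 2.02 ± 0.45. The replicate block gave 3 and 6 at 18 h, in the HuR IP and the IgG1 IP, and 0 at 3 h. Of all transcripts, 3.66% and 5.07% passed under it at 18 h, and 2.25% and 2.54% at 3 h. The other 9 measured targets passed in none of these fits. They were IL12A, IL12B, IL7, IL15, TLR3, VCAM1, NOS2, IFNB1 and SOCS1. The first 8 stayed between -0.28 and 0.62 in the 4 comparisons, with SOCS1 reaching 1.03 in the IgG1 IP at 18 h.

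**Figure D4:**
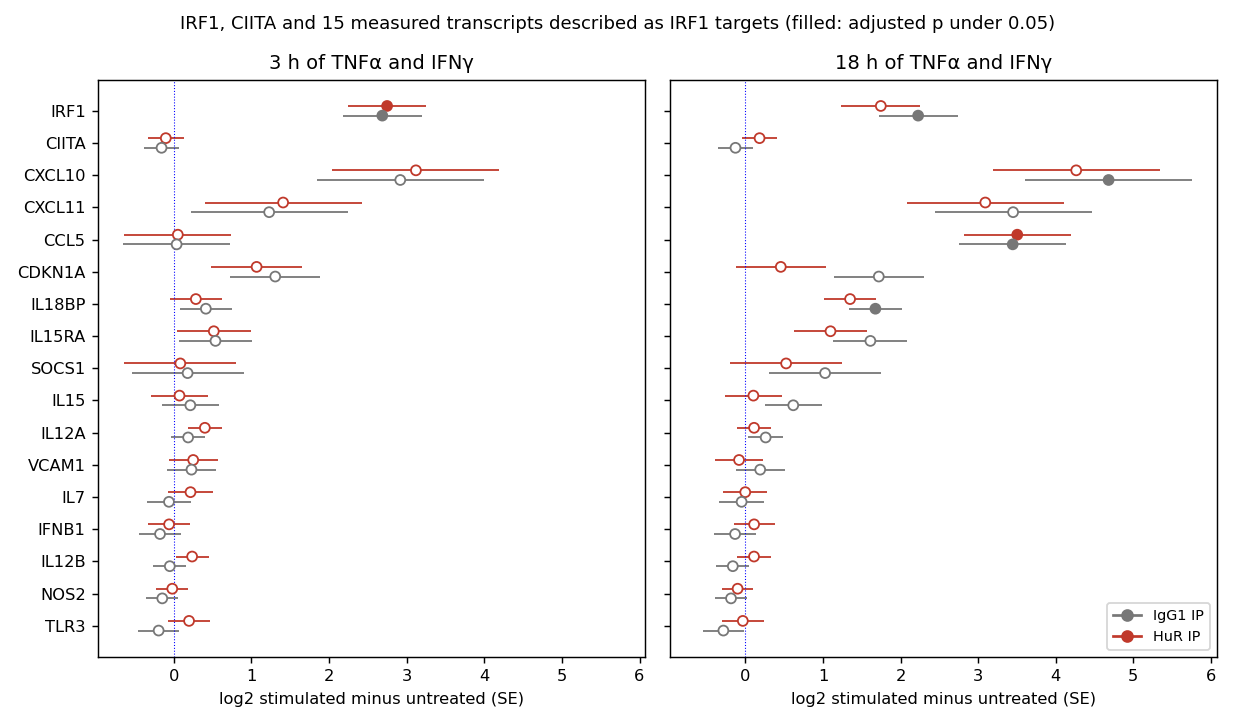
Log2 stimulated minus untreated (horizontal axis, bars are SE of the limma fit) at 3 h (left) and 18 h (right) for IRF1, CIITA and the 15 measured transcripts described as IRF1 targets, in the HuR IP (red) and IgG1 IP (grey); filled points passed. IRF1 is the 1 filled row at 3 h, and at 18 h CCL5 is filled in both IPs and IRF1, CXCL10 and IL18BP in the IgG1 IP.

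Of 20 partners and targets of CIITA, 3 were measured, and all are general regulators of transcription. They were CREB1, a DNA-binding factor, and the histone acetyltransferases CREBBP and EP300. These 3 lay between -0.51 and 0.38 in the 4 comparisons of stimulated with untreated cells. Of them 0 passed, where 0.563% to 1.41% of all transcripts did. No MHC class II transcript of the list had a value, so the genes that CIITA is best known to switch on were not analysed here.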

How the data were processed

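RNA recovered with an antibody against HuR or with IgG1 was reverse-transcribed into 33P-labelled cDNA and hybridised to membrane arrays, per the labels' protocols. The authors deposited a table of whole-number intensities, named non-normalized, and a second one in which the intensities of each array are scaled by a single factor (0.542 to 3.64). The sources used here do not state how images and background were treated or where the factor comes from. The table lists 384 probes, and 355 of them have values. Symbols were updated through the deposited accessions with the RefSeq gene table of GRCh38.p14, used for names only, which named 342 probes.

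Intensities were put on the log2 scale, centred on each array's median and fitted in R 4.3.3 with the lmFit and eBayes functions of limma 3.58.1, with 1 coefficient per group and no block over all 24 arrays. P values were adjusted by Benjamini-Hochberg over the 355 transcripts. There were 17 comparisons. They share arrays, so IRF1's differences are not independent of each other. The array number limits the precision.

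IRF1, CIITA, the gene lists and the tests were chosen with earlier results of these data known. The named genes are IRF1 and CIITA, list members that passed (up to 4 per list and comparison) and the 5 transcripts most like each. SOCS1, SOCS3, JAK2, NFKBIA, RELA, NFKB2, further IRF1 targets and the receptor transcripts were named after their values were seen. The results of the lists without set 1 and with the replicate block were also added after the values were seen. Of the listed transcripts, 1 is not reported here.

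The labels number the replicates 1, 3 and 4 in every group. In 11 of the 12 comparisons of 2 groups, all same-numbered arrays deviated together (correlation over 0.1 across transcripts). The exception was the HuR IP against the IgG1 IP in stimulated cells at 18 h, with a lowest value of 0.0334. Over all pairs of arrays from different groups, 82 of 84 with the same number were over 0.1. So were 52 of 168 with different numbers. Deviations were taken from group means of 3 arrays, which pulls differently numbered arrays toward negative correlations. Of 24 arrays, 22 correlated best with an array of their own number. The numbers were therefore taken to pair the arrays, and the replicate block is printed where it changes a call. Unless a setting is named, SEs, intervals and adjusted p values come from the fit without this block. For the change of IRF1 with stimulation the SE was 0.51 in that fit and 0.38 with the block. Alternatives were 4 other scalings, background correction, the second table, the brighter probes, blocks, array weights, fewer groups and leaving out sets or arrays.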

Additional observations from a re-analysis of the deposited data

How the results depend on the processing

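IRF1's difference with stimulation stayed above 0 under every alternative. The replicate block changed the call of IRF1 in the HuR IP at 18 h only (1.745, adjusted p = 0.0156), and no other call of IRF1 or CIITA. That difference passed too with a random replicate block (1.745, correlation 0.368), quantile normalization (1.79), the 75th percentile (1.68), z scores (1.77), normexp background correction with an offset of 50 (3.38) and array weights (1.96). It missed the threshold under the other 5. Without normalization, the other 3 calls were lost: 2.99 in the HuR IP at 3 h, and 2.69 and 1.02 in the IgG1 IP at 3 h and 18 h. The second deposited table gave 0.75 in the IgG1 IP at 18 h. In these 2 settings the median of all transcripts itself shifted there, by -1.20 and -1.47. When only the groups compared were fitted, the calls in the IgG1 IP were lost at 3 h (2.69) and 18 h (2.23), with fewer arrays to estimate the spread. Normexp raised the rise in the HuR IP at 3 h from 2.75 to 4.20. Leaving out sets or arrays gave 2.49 to 3.16 and 1.56 to 1.96 in the HuR IP at 3 h and 18 h, and 2.30 to 3.11 and 1.67 to 3.03 in the IgG1 IP. Where a group was left with 2 arrays, it was assumed to vary like the others. CIITA passed in none (-1.61 to 1.26 with stimulation), and had no value among the brighter probes. Of 779 values of both transcripts under these settings, 82 had the other sign than the reported value where neither passed.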
